A study of Arabidopsis thaliana with 6 samples.

Results

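ROS1, DML2, DML3 and DME are the 4 DNA demethylase genes of Arabidopsis thaliana, and they were taken as a family out of 33056 annotated nuclear genes. The members were set by gene identity, namely ROS1 (AT2G36490), DML2 (AT3G10010), DML3 (AT4G34060) and DME (AT5G04560), each examined from its annotated start to its annotated end with 2000 bp on either side. CHH methylation, where H is A, C or T, was read by whole-genome bisulfite sequencing of above-ground tissue from 2.5-week-old Col-0 plants raised on soil under long days (16 h light, 8 h dark).

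All 6 libraries carry the nrpd1-3 mutation, a T-DNA null allele of NRPD1, the largest subunit of RNA polymerase IV (Pol IV). NRPD1ΔCTD (2 libraries, labelled nrpd1dDeCL) adds FLAG-tagged NRPD1 without its carboxy-terminal DeCL domain. The nrpd1-3 group (2 libraries) has no transgene. NRPD1FL (2 libraries) adds FLAG-tagged full-length NRPD1. Both transgenes are driven by the native NRPD1 promoter and the transgenic plants were selected with Basta herbicide, so neither transgenic group is an untransformed plant. The NRPD1FL sample titles name NRPE1 while their transgene field names NRPD1, and the field was followed. No wild type was analysed here, so NRPD1FL served as the reference.

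DNA demethylases of this family are glycosylases that cut methylated cytosine out of DNA, after which repair enzymes fill the gap with unmethylated cytosine. ROS1, DML2 and DML3 act mainly in vegetative tissue, whereas DME is best known for demethylating the central cell of the female gametophyte. Pol IV works on the opposite side: it starts the siRNAs that direct the methyltransferase DRM2 to new sites, and CHH methylation marks this pathway because no maintenance enzyme copies it from strand to strand at such sites. The ROS1 promoter is known for a short element that is methylated by RNA-directed DNA methylation and demethylated by ROS1 itself, and ROS1 transcription follows the methylation of that element. The question here was therefore how CHH methylation at and around these genes differed when Pol IV was absent, truncated or complete.

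The pair of sequences below carries the results. The first is the 300 bp immediately upstream of ROS1 (chr2:15314808-15315107, TAIR10, minus strand, 24.0% GC), shown to mark how few of its cytosines could be read. Capitals are the 12 CHH cytosines listed in at least 1 library, all of them on the opposite strand and hence printed as G. The second is a 300 bp window downstream of DML2 (chr3:3080401-3080700, TAIR10, minus strand, 27.0% GC), shown because it had the largest difference between groups in the family. Capitals there are the 15 CHH cytosines that were listed in both NRPD1FL libraries and had a pooled level of 50% or more there, 3 printed as C and 12, on the opposite strand, as G. Both were read from the RefSeq TAIR10.1 reference.
ROS1 upstream: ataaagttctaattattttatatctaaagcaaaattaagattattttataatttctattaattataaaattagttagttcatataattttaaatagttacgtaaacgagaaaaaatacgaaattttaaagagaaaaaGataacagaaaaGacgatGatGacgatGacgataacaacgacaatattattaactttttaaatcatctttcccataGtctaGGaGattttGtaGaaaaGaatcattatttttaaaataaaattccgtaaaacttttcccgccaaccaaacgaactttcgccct
DML2 downstream: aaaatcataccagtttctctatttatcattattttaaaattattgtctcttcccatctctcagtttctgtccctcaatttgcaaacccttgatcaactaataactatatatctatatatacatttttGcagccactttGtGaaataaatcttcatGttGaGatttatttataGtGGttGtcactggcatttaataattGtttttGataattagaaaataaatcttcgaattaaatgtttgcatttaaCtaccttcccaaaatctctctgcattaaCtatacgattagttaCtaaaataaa

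The libraries held 12654903 to 13819039 CHH cytosines with 5 or more reads each, at a mean of 15.2 to 16.3 reads. Levels are given as the percentage of all reads over the cytosines of a region that were methylated. A read counts once at each cytosine it covers, so the reads of a region are not separate molecules. One library stood apart. The median level over the gene bodies of all genes was 0.77% in nrpd1-3 replicate 1, against 0.37% to 0.38% in the other 5 libraries, and the excess was also present in the flanks. This library enters both comparisons that include nrpd1-3, and the part of its background in the results was not tested.

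Across the family, 1 place differed strongly between the groups: a 700 bp stretch behind DML2. Elsewhere the demethylase genes carried little CHH methylation in any group in the windows that could be tested. Windows 300 bp long, placed every 200 bp, were compared by logistic regression of methylated reads, with p-values adjusted by the Benjamini-Hochberg method over 417722 windows of the genome, and a window was called at an adjusted p of 0.01 or less with a difference of 10 percentage points or more. The 4 genes and their flanks spanned 232 windows, of which 175 had at least 10 readable cytosines in every library and were tested. NRPD1ΔCTD was higher than nrpd1-3 in 3 of these, where 1.49% of all windows were called. nrpd1-3 was lower than NRPD1FL in 3, where 2.43% were called. NRPD1ΔCTD was lower than NRPD1FL in 3, where 0.546% were called. The 3 windows were the same in each comparison and all lay downstream of DML2, while none of the 51 tested windows of ROS1, the 26 of DML3 or the 58 of DME was called in either direction. Of the 170 tested windows outside the region downstream of DML2, the difference between NRPD1ΔCTD and nrpd1-3 ranged from -3.40 to 1.15 points, that between nrpd1-3 and NRPD1FL from -3.11 to 3.47 points, and that between NRPD1ΔCTD and NRPD1FL from -1.96 to 1.69 points. A further 14 windows for NRPD1ΔCTD against nrpd1-3 and 13 for nrpd1-3 against NRPD1FL passed on the adjusted p without a 10-point difference, where 9.09% and 10.9% of all windows did so, and nrpd1-3 replicate 1 was the highest of the 6 libraries in 13 and 11 of them.

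**Figure D1:**
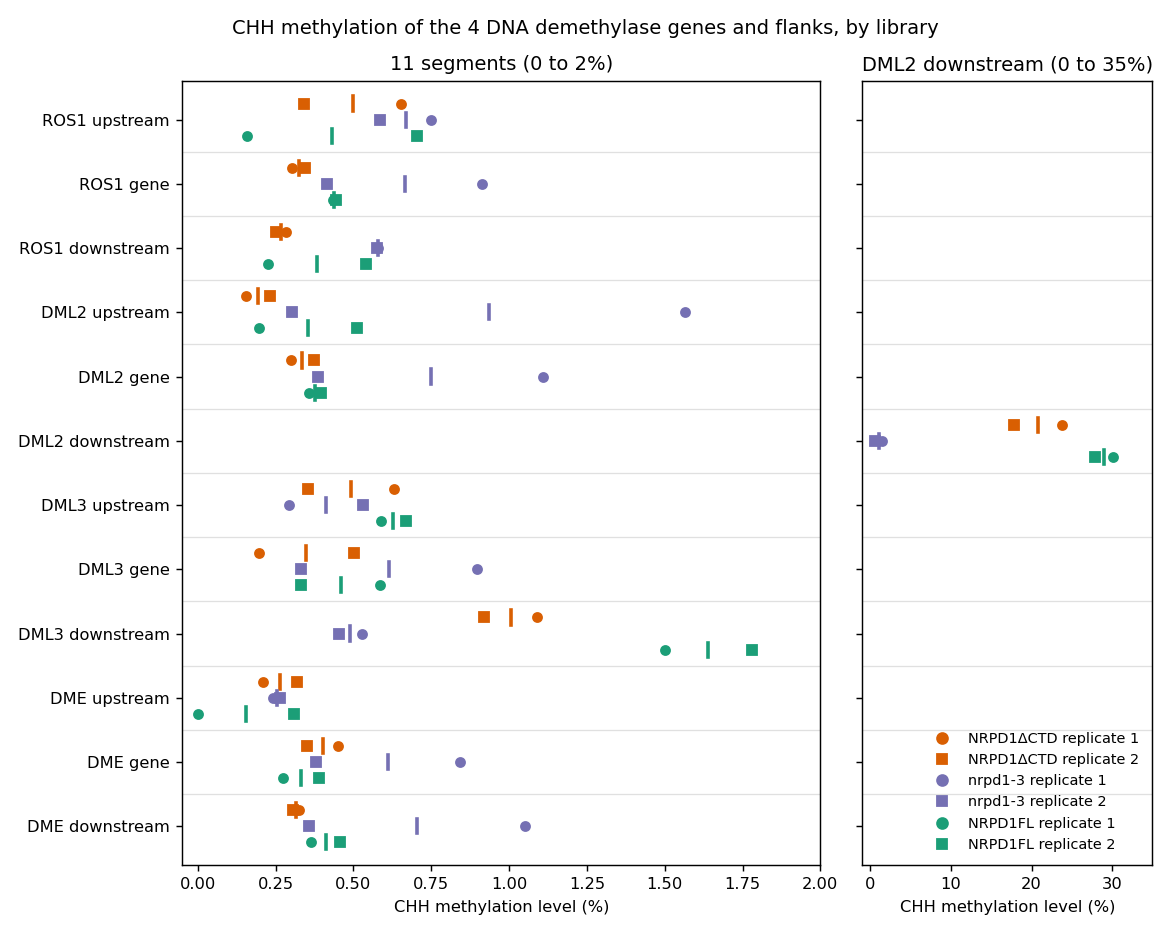
CHH methylation level (percent, horizontal axis) of the upstream 2000 bp, gene and downstream 2000 bp of each demethylase gene. Points are libraries (circle, replicate 1; square, replicate 2), short vertical lines are group means, and DML2 downstream has a wider scale on the right. The NRPD1ΔCTD and NRPD1FL libraries stand apart from nrpd1-3 downstream of DML2, by far less downstream of DML3, and nrpd1-3 replicate 1 is the rightmost point in 8 of the other 10 segments.

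The region upstream of ROS1 was low in every group and mostly unreadable at its most informative end. ROS1 lies on chromosome 2 (chr2:15307907-15314807, minus strand) and encodes the main demethylase of vegetative tissue. Over its 2000 bp upstream, the CHH level was 0.65% and 0.34% in NRPD1ΔCTD, 0.75% and 0.58% in nrpd1-3, and 0.16% and 0.70% in NRPD1FL. The libraries of the 3 groups overlapped. NRPD1ΔCTD minus nrpd1-3 was -0.17 points (adjusted p = 0.821), nrpd1-3 minus NRPD1FL 0.24 points (adjusted p = 0.707) and NRPD1ΔCTD minus NRPD1FL 0.07 points (adjusted p = 1), by a quasi-binomial F test with dispersion moderated in limma over the 32638 upstream segments of all genes and called at 0.05. In the same test, 8.72% of upstream segments were called higher in NRPD1ΔCTD than in nrpd1-3, 13.6% lower in nrpd1-3 than in NRPD1FL and 4.16% lower in NRPD1ΔCTD than in NRPD1FL.

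The reading of that low level is limited by which cytosines were listed. Of 459 CHH cytosines in the reference upstream of ROS1, 184 (40.1%) were listed in any library and 73 (15.9%) in all 6. In the first 400 bp, where the printed sequence lies, 15 of 59 were listed in any library and 0 in all 6. Between 801 and 1200 bp, only 1 of 94 cytosines was listed, in 1 library. The tested window over the 5′ end of the gene (chr2:15314601-15314900) had at most 1.91% in any library. The 2 nearest tested windows lying wholly upstream (chr2:15315201-15315500 and chr2:15315401-15315700) had at most 1.01%.

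In the first 400 bp, 4 of 22 reads were methylated in NRPD1ΔCTD replicate 1 (18.2%, 95% Wilson interval 7.31% to 38.5%) and 1 of 36 in replicate 2 (2.78%, 0.492% to 14.2%). In nrpd1-3, 0 of 35 and 0 of 45 reads were methylated, which allows levels of up to 8.57% and 6.67%. In NRPD1FL, 0 of 66 reads were methylated in replicate 1, which allows up to 4.55%, and 5 of 40 in replicate 2 (12.5%, 5.46% to 26.1%). Methylated reads were thus seen in 3 of the 4 transgenic libraries and in neither nrpd1-3 library, but they were 4, 1 and 5 reads, and the replicates within NRPD1ΔCTD and within NRPD1FL were far apart. The intervals and limits cover counting error only. They also treat each count as independent, although neighbouring cytosines share reads, so they are too narrow. The 22 reads of NRPD1ΔCTD replicate 1, for example, were counted over 4 cytosines. A difference at the promoter-proximal end of ROS1 was not detectable at this depth.

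**Figure D2:**
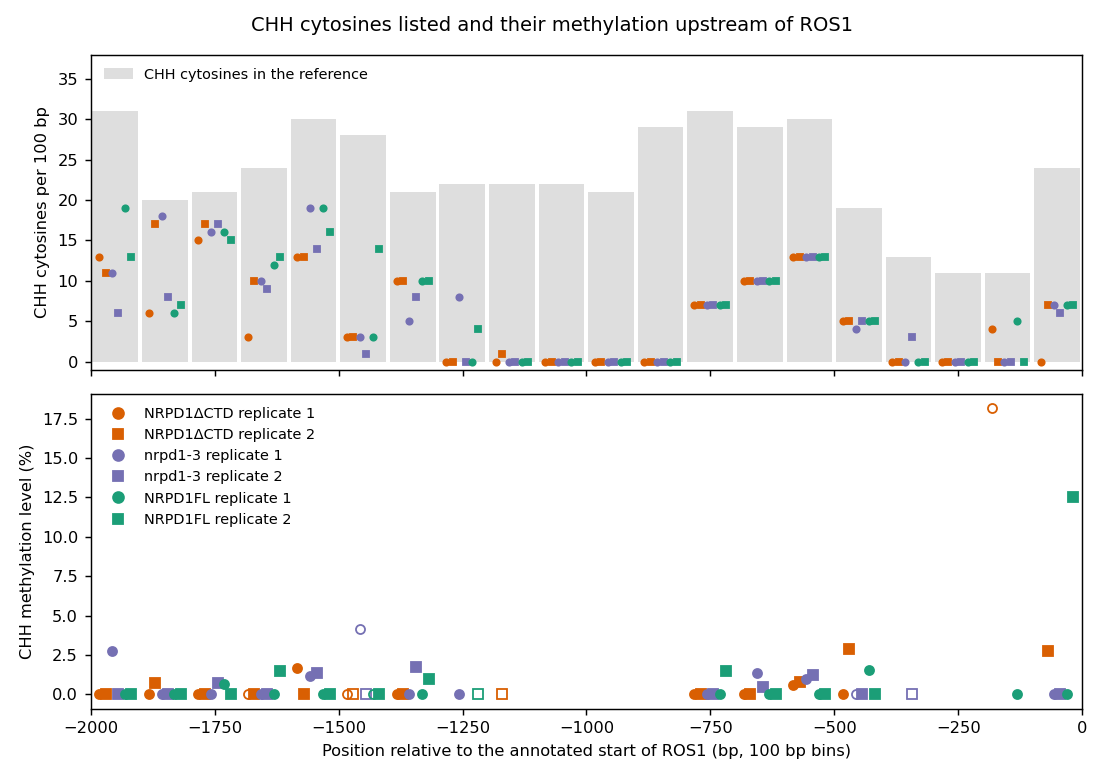
Upper panel: CHH cytosines per 100 bp bin upstream of ROS1, as present in the reference (grey bars) and as listed in each library (points). Lower panel: CHH methylation level (percent) of each library in the same bins, with open symbols for bins of fewer than 5 cytosines. No bin from 801 to 1100 bp has a listed cytosine, and the only levels above 5% are those of NRPD1ΔCTD replicate 1 (18.2%) and NRPD1FL replicate 2 (12.5%) within 200 bp of the gene.

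The ROS1 gene body read 0.30% and 0.34% in NRPD1ΔCTD, 0.91% and 0.42% in nrpd1-3, and 0.43% and 0.44% in NRPD1FL. Downstream of ROS1 the values were 0.28% and 0.25% in NRPD1ΔCTD, 0.58% and 0.58% in nrpd1-3, and 0.23% and 0.54% in NRPD1FL. Both nrpd1-3 libraries were the highest downstream, with a difference from NRPD1ΔCTD of 0.31 points that did not pass the test (adjusted p = 0.457, quasi-binomial F test). For gene bodies of all genes, 0.807% were called higher in NRPD1ΔCTD than in nrpd1-3, 2.07% lower in nrpd1-3 than in NRPD1FL and 0.045% lower in NRPD1ΔCTD than in NRPD1FL. For downstream segments the shares were 6.43%, 10.3% and 2.34% in the same comparisons. Genes whose 6 upstream levels were most like those of ROS1, by root mean square difference over 22434 genes with at least 100 readable cytosines, were SNL6 (0.084 points), AT2G43300 (0.089 points), AT3G22090 (0.103 points), AT4G35500 (0.104 points) and AT3G07080 (0.107 points). This likeness is common, since 73.7% of those genes lay within 0.5 points of ROS1.

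DML2 had CHH methylation behind its 3′ end that was nearly absent from nrpd1-3 and was partly present with NRPD1ΔCTD. DML2 lies on chromosome 3 (chr3:3081735-3088550, minus strand) and encodes a paralog of ROS1. Over the 2000 bp downstream, NRPD1ΔCTD had 23.8% and 17.8%, nrpd1-3 had 1.48% and 0.58%, and NRPD1FL had 30.1% and 27.9%. The libraries of the 3 groups did not overlap. NRPD1ΔCTD rose 19.7 points above nrpd1-3 (adjusted p = 0.000513) and nrpd1-3 fell to 1.03% ± 0.636, against 29.0% ± 1.55 in NRPD1FL (SD, n = 2 each; adjusted p = 6.83e-05, quasi-binomial F test). NRPD1ΔCTD averaged 20.8% ± 4.25, a difference of -8.21 points from NRPD1FL that did not pass the same test (adjusted p = 0.122, quasi-binomial F test). That difference ran from -11.2 to -5.20 points as each library was left out in turn.

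The called windows ran together over chr3:3080001-3080700. This stretch lies 1035 bp from DML2 and 813 bp from the convergent gene EDA31 (AT3G10000), in an intergenic space of 2546 bp, and overlaps no annotated gene. It is rich in A and T, with 24.9% GC. By blastn it matched 575 places of the genome over at least 100 bp, 446 of them at 80% identity or more and 20 at 90% or more, with a best identity of 94.9%, so it belongs to a repeat. A transposon annotation was not used here.

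The window at chr3:3080001-3080300 had 26.4% and 30.2% in NRPD1ΔCTD, 6.36% and 0% in nrpd1-3, and 37.6% and 39.1% in NRPD1FL. The window at chr3:3080201-3080500 had 23.3% and 24.9% in NRPD1ΔCTD, 0.99% and 0% in nrpd1-3, and 36.0% and 36.9% in NRPD1FL. The window at chr3:3080401-3080700, whose sequence is printed above, had 34.6% and 29.6% in NRPD1ΔCTD, 0% and 0.87% in nrpd1-3, and 44.8% and 47.4% in NRPD1FL. In all 3 windows both NRPD1ΔCTD libraries lay between the nrpd1-3 and the NRPD1FL libraries. The libraries at 0% had 67, 100 and 128 reads in these windows, which allows levels of up to 4.48%, 3.00% and 2.34%. NRPD1ΔCTD minus nrpd1-3 was 24.3, 23.5 and 32.1 points (adjusted p = 1.65e-13, 6.5e-20 and 3.2e-34, logistic regression). nrpd1-3 minus NRPD1FL was -34.3, -35.9 and -45.5 points (adjusted p = 3.52e-23, 1.21e-34 and 3.49e-55). NRPD1ΔCTD minus NRPD1FL was -10.01, -12.3 and -13.3 points (adjusted p = 0.000156, 3.53e-12 and 1.31e-09). These window tests count reads and do not use the spread between libraries. With the quasi-binomial F test, which does, 2 windows were called for NRPD1ΔCTD against nrpd1-3, 3 for nrpd1-3 against NRPD1FL and 0 for NRPD1ΔCTD against NRPD1FL, where no window of the genome was called. For the other comparisons the share of all windows called by this test is not given here, so their counts have no background beside them.

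**Figure D3:**
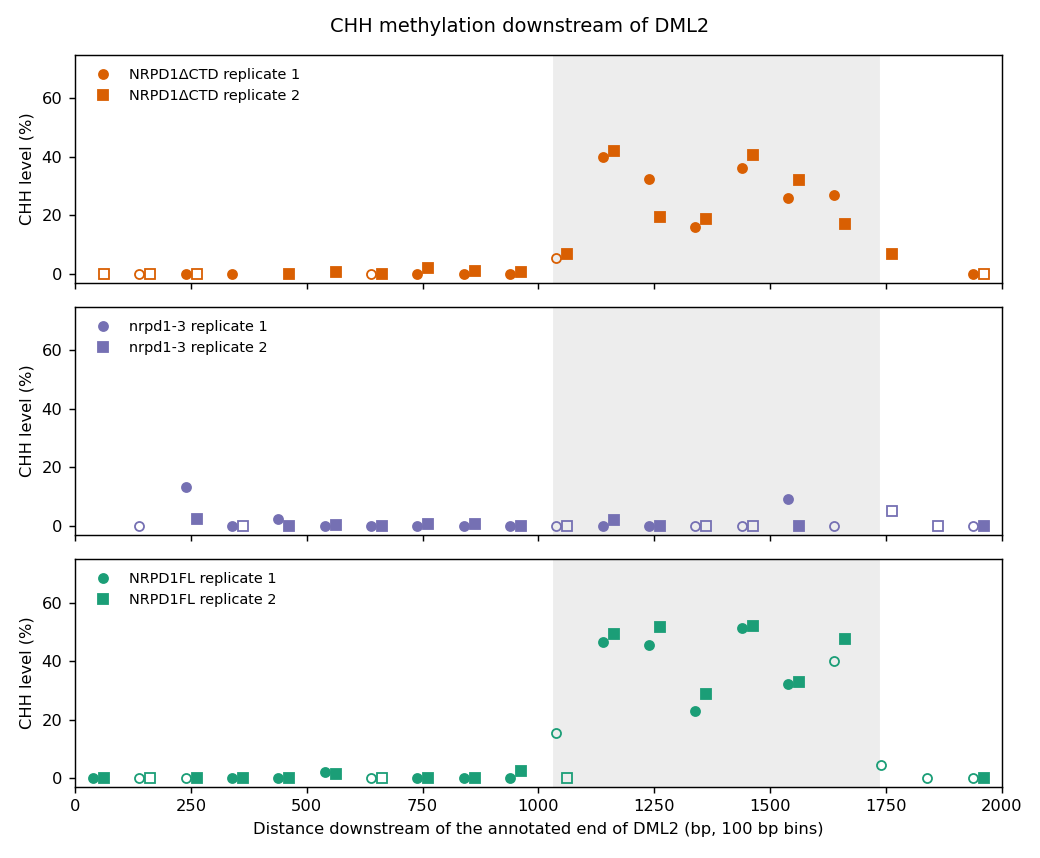
CHH methylation level (percent) in 100 bp bins by distance from the annotated end of DML2, in NRPD1ΔCTD, nrpd1-3 and NRPD1FL from top to bottom. Points are libraries, open symbols mark bins of fewer than 5 cytosines, and grey shading marks the 3 called windows. Levels of 16.2% to 42.2% in NRPD1ΔCTD and 22.8% to 52.1% in NRPD1FL fill the bins from 1101 to 1600 bp, where nrpd1-3 has at most 9.21%.

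Over the whole stretch, the level was 30.3% and 29.7% in NRPD1ΔCTD, 2.94% and 0.549% in nrpd1-3, and 39.2% and 41.7% in NRPD1FL. The means were 30.0% ± 0.457, 1.75% ± 1.69 and 40.4% ± 1.77 (SD, n = 2 each). Between nrpd1-3 at the bottom and NRPD1FL at the top, the NRPD1ΔCTD libraries had regained 73.8% and 72.1% of the difference. The groups were separate in all 3 comparisons, but an exact permutation test of 2 libraries against 2 cannot go below p = 0.33, two-sided, and gave that value each time. The stretch was chosen as called, so these levels describe the calls and add no test of their own.

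Among 100 bp bins with at least 5 readable cytosines in every library, the highest lay 1201 to 1300 bp behind the gene, where NRPD1ΔCTD had 32.6% and 19.6%, nrpd1-3 0% and 0%, and NRPD1FL 45.5% and 51.7%. The nrpd1-3 libraries had only 39 and 38 reads there, which allows up to 7.69% and 7.89%. The remaining downstream sequence next to DML2, chr3:3080701-3081734, was low in all groups, with 0% and 0.816% in NRPD1ΔCTD, 0.966% and 0.515% in nrpd1-3, and 0.602% and 0.454% in NRPD1FL. At the cytosines listed there, the methylated stretch did not reach the gene in any library. Of the 277 CHH cytosines of that sequence, 150 were listed in any library and 20 in all 6.

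Most single cytosines showed the same order. The stretch has 125 CHH cytosines, of which 85 were listed in any library and 21 in all 6. At all 21, the pooled level was higher in NRPD1ΔCTD than in nrpd1-3 and higher in NRPD1FL than in nrpd1-3. At 18 of them neither nrpd1-3 library had a methylated read, and at 16 the pooled level was lower in NRPD1ΔCTD than in NRPD1FL. Of 62 cytosines listed in both NRPD1ΔCTD and both NRPD1FL libraries, the pooled level was lower in NRPD1ΔCTD at 50 and higher at 12. Neighbouring cytosines share reads, so these counts are not replicates. They come from the called windows and add no test of their own.

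Both strands and the main sequence contexts were methylated. On the top strand the levels were 34.4% and 33.6% in NRPD1ΔCTD, 3.80% and 0.704% in nrpd1-3, and 42.9% and 45.4% in NRPD1FL. On the bottom strand they were 24.2% and 23.2% in NRPD1ΔCTD, 0% and 0% in nrpd1-3, of 54 and 40 reads (up to 5.56% and 7.50%), and 35.1% and 34.9% in NRPD1FL. Cytosines in CAA or CTA, the trinucleotides favoured by the methyltransferase CMT2, averaged 30.7%, 1.08% and 42.6% in NRPD1ΔCTD, nrpd1-3 and NRPD1FL, and the CHH cytosines outside these and outside CC averaged 27.1%, 2.15% and 36.9%. Both classes had the same order of groups. The 12 cytosines followed by C had pooled levels of 34.4%, 9.09% and 39.9% in NRPD1ΔCTD, nrpd1-3 and NRPD1FL. In nrpd1-3 these rested on 22 reads, all of replicate 1.

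The number of reads in the stretch moved with the groups. NRPD1ΔCTD had 6.88 and 4.99 reads per 1000000 CHH reads of the library there, nrpd1-3 had 1.11 and 0.81, and NRPD1FL had 8.11 and 6.36. The nrpd1-3 mean was 0.133 of the NRPD1FL mean, whereas over the DML2 gene body that ratio was 1.04. These sums hold only cytosines with 5 or more reads, so a cytosine below that adds nothing. In nrpd1-3, 34 and 25 cytosines were listed, against 73 and 75 in NRPD1FL. Over the 21 cytosines listed in all 6 libraries the nrpd1-3 mean was 0.224 of the NRPD1FL mean. Whether the difference in reads contributes to the difference in level was not tested. Over the 21 cytosines listed in all 6 libraries the levels were 25.8% and 27.5% in NRPD1ΔCTD, 1.17% and 0.637% in nrpd1-3, and 34.4% and 35.4% in NRPD1FL. On those cytosines NRPD1ΔCTD had regained 73.4% and 78.3% of the difference.

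**Figure D4:**
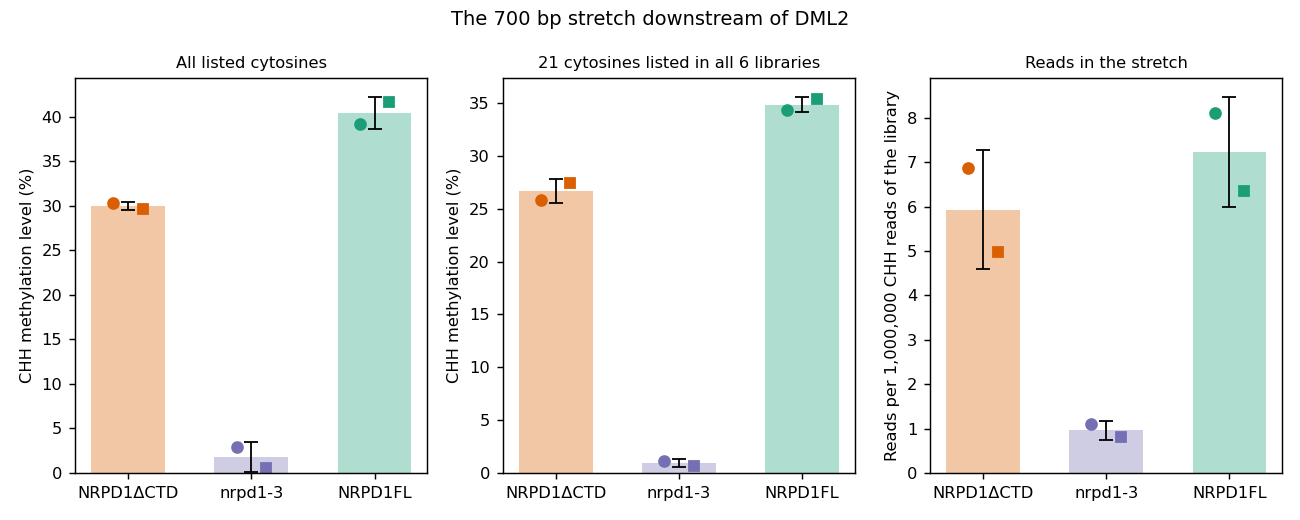
The 700 bp stretch downstream of DML2 in the 3 groups: CHH methylation level (percent) over all listed cytosines (left) and over the 21 cytosines listed in all 6 libraries (middle), and reads per 1000000 CHH reads of the library (right). Bars are means, error bars are the SD of 2 libraries, points are libraries. NRPD1ΔCTD lies between nrpd1-3 and NRPD1FL in both measures of level, and nrpd1-3 has the fewest reads.

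The DML2 gene body and the readable part of its upstream sequence were low in all groups. Only 157 of 462 upstream CHH cytosines (34.0%) were listed in any library and 3 of 10 upstream windows were tested. Most of the DML2 promoter could therefore not be compared. The 2000 bp upstream read 0.16% and 0.23% in NRPD1ΔCTD, 1.57% and 0.30% in nrpd1-3, and 0.20% and 0.51% in NRPD1FL. The gene body read 0.30% and 0.37% in NRPD1ΔCTD, 1.11% and 0.39% in nrpd1-3, and 0.36% and 0.40% in NRPD1FL. In both, nrpd1-3 replicate 1 alone was high, and the other 5 libraries lay at 0.51% or below.

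DML3 showed a small and local difference downstream. DML3 lies on chromosome 4 (chr4:16313366-16319426, plus strand) and encodes a further ROS1 paralog. Its downstream 2000 bp read 1.09% and 0.92% in NRPD1ΔCTD, 0.53% and 0.45% in nrpd1-3, and 1.50% and 1.78% in NRPD1FL. The groups did not overlap and kept the order seen downstream of DML2. nrpd1-3 fell 1.15 points below NRPD1FL (adjusted p = 0.0336, quasi-binomial F test), a call that was lost when either NRPD1ΔCTD or either NRPD1FL library was left out (adjusted p = 0.0907 to 0.233). NRPD1ΔCTD differed by 0.51 points from nrpd1-3 (adjusted p = 0.402) and by -0.64 points from NRPD1FL (adjusted p = 0.777).

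Most of it came from 1 bin of 100 bp, 1501 to 1600 bp behind the gene, with 1.69% and 4.84% in NRPD1ΔCTD, 1.71% and 0.515% in nrpd1-3, and 7.12% and 9.06% in NRPD1FL. Both NRPD1FL libraries were above the others there, and the NRPD1ΔCTD and nrpd1-3 libraries overlapped. Of 8 bins with enough cytosines, this one was named for its pooled NRPD1FL level and its difference of nrpd1-3 from NRPD1FL. Both were the largest, so the high NRPD1FL levels describe the choice and add no test. The bin lies at chr4:16320927-16321026, between the noncoding RNA genes AT4G08885 and AT4G03365. The nearer 1000 bp behind DML3 read 0.996% and 0.283% in NRPD1ΔCTD, 0.200% and 0.417% in nrpd1-3, and 0.537% and 0.220% in NRPD1FL, with no order of groups. DML3 was also the gene with the fewest readable windows, 26 of 52. Its gene body levels, 0.20% to 0.90% over the 6 libraries, overlapped between groups. Upstream, NRPD1ΔCTD had 0.63% and 0.35%, nrpd1-3 0.29% and 0.53%, and NRPD1FL 0.59% and 0.67%. Both NRPD1FL libraries were above both nrpd1-3 libraries there, by 0.21 points of the means, which did not pass the test (adjusted p = 0.63).

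**Figure D5:**
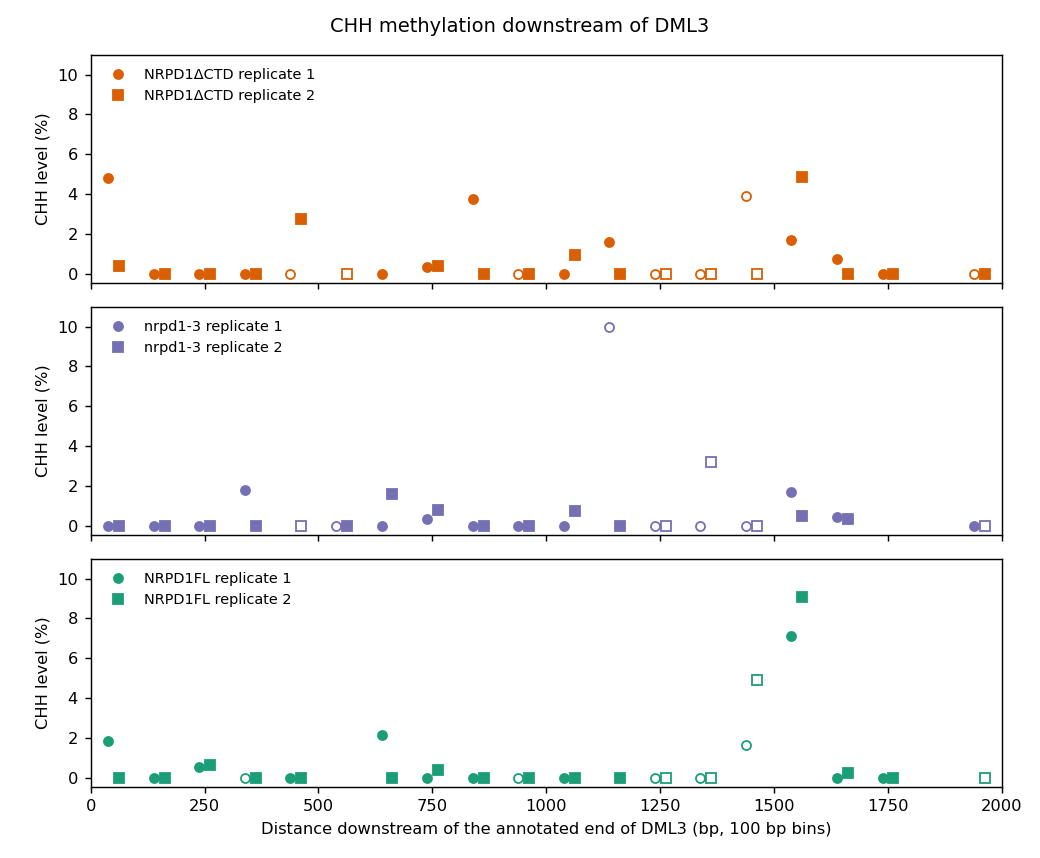
CHH methylation level (percent) in 100 bp bins by distance from the annotated end of DML3, in NRPD1ΔCTD, nrpd1-3 and NRPD1FL from top to bottom. Points are libraries and open symbols mark bins of fewer than 5 cytosines. The bin from 1501 to 1600 bp reaches 7.12% and 9.06% in NRPD1FL.

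DME was low in every readable segment. DME lies on chromosome 5 (chr5:1309099-1318520, plus strand). Upstream, the level was 0.21% and 0.32% in NRPD1ΔCTD, 0.24% and 0.27% in nrpd1-3, and 0% and 0.31% in NRPD1FL, where the 0 was of 137 reads and allows up to 2.19%. Only 59 of 440 upstream CHH cytosines (13.4%) were listed in any library and 1 of 10 upstream windows was tested, so most of the DME promoter could not be compared. The gene body read 0.45% and 0.35% in NRPD1ΔCTD, 0.84% and 0.38% in nrpd1-3, and 0.27% and 0.39% in NRPD1FL. Downstream, where the sulfite reductase gene SIR begins, it read 0.33% and 0.30% in NRPD1ΔCTD, 1.05% and 0.36% in nrpd1-3, and 0.36% and 0.46% in NRPD1FL. Again nrpd1-3 replicate 1 alone was high in both, and the other 5 libraries lay at 0.46% or below.

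Set beside each other, 10 of the 12 segments of the family were not called in any comparison by the quasi-binomial F test, as were 90.9% of the segments of all genes. Their smallest adjusted p was 0.431 and 0 of 30 unadjusted p-values was under 0.05, against 4.23% over the uncalled segments of all genes. limma on arcsine levels called 0 of these 30, where it called 0.204% over the uncalled segments of all genes, and logistic regression without dispersion called 10, where it called 23.6%. With replicate 1 as the only nrpd1-3 library, 10 of the 30 were also called, all with nrpd1-3 higher, where 21% were called over the uncalled segments of all genes. With replicate 2 as the only one, 0 were called, where the share was 0.504%. Levels in those 10 segments ran from 0% to 1.57%, and to 0.703% without nrpd1-3 replicate 1. The 4 gene bodies read 0.84% to 1.11% in that library and 0.20% to 0.58% in the other 5. In each of the 10 segments the 100 bp bin with the highest NRPD1FL level was at 3.13% or below when its libraries were pooled. Among the 10 bins with the largest difference between nrpd1-3 and NRPD1FL, nrpd1-3 replicate 1 was highest in 8. That library is part of the difference that picked these bins, and no share over bins of other genes is given.

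The genes that work with the demethylases or against them were read the same way over their upstream 2000 bp. Of 14 genes for demethylation partners and repair, including the acetyltransferase IDM1, the methyl-binding protein MBD7 and the phosphatase ZDP, 0 were called in any comparison by the quasi-binomial F test and 0 by limma, and 1 unadjusted p was under 0.05, for nrpd1-3 against NRPD1FL. Their levels were at most 1.13% outside nrpd1-3 replicate 1, whose highest was 2.68%. Of 5 tested genes for maintenance methylation and chromatin, 0 were called by either test and 0 unadjusted p-values were under 0.05.

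Of 21 genes of RNA-directed DNA methylation, 2 were called higher in NRPD1ΔCTD than in nrpd1-3 (9.52%, against 8.72% of all upstream segments). In nrpd1-3, 5 were called lower than in NRPD1FL (23.8%, against 13.6%) and 1 lower in NRPD1ΔCTD than in NRPD1FL (4.76%, against 4.16%). The medians of the list were -0.02, -0.04 and -0.08 points in these comparisons, against -0.08, 0.08 and -0.03 points over all upstream segments. CLSY1, a chromatin remodeler that recruits Pol IV, had 44.1% and 39.2% in NRPD1ΔCTD, 7.27% and 7.25% in nrpd1-3, and 43.0% and 38.1% in NRPD1FL. HEN1, which methylates the ends of small RNAs, had 15.8% and 14.6% in NRPD1ΔCTD, 3.17% and 0.635% in nrpd1-3, and 21.1% and 18.1% in NRPD1FL. These were the 2 genes called in the first comparison, and in CLSY1 the NRPD1ΔCTD and NRPD1FL libraries overlapped. CLSY4, IDN2 and DCL3 were called only in nrpd1-3 against NRPD1FL or, for DCL3, which dices the siRNA precursors, also in NRPD1ΔCTD against NRPD1FL. DCL3 had 1.19% and 1.71% in NRPD1ΔCTD, 0.457% and 0.688% in nrpd1-3, and 6.15% and 3.92% in NRPD1FL. The lower DCL3 level in NRPD1ΔCTD than in NRPD1FL (-3.59 points, adjusted p = 0.045, quasi-binomial F test) was not called by limma.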

How the data were processed

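Bisulfite libraries of 6 Arabidopsis samples, 2 per group, were analysed. Groups and replicate numbers came from the labels. The 4 members, the pathway lists and the tests were chosen with earlier results of these data known.

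Per the labels and the study's methods, the authors used the TruSeq DNA methylation kit on a NextSeq instrument, bcl2fastq 2.16.0.10, Cutadapt 1.9.1, Bismark 0.16.1 and methylKit 0.9.5 with TAIR10. The deposited coverage values are counts of reads per CHH cytosine, listed at 5 reads or more. The deposited percent values give the methylated and unmethylated share of these reads. Coverage multiplied by that percent was whole to within 0.000154 of a read. All listed positions fell on a reference cytosine (100%) of the TAIR10.1 assembly, whose RefSeq annotation was used with coordinates counted from 1. Cytosines under 5 reads are absent, so the cytosines read differ between libraries, and no correction for incomplete conversion was made.

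Windows followed the study's scheme (300 bp long, every 200 bp) and at least 10 cytosines per library. The likelihood-ratio test of a logistic regression was adjusted by the Benjamini-Hochberg method, where the study used SLIM and wild type. Segments (2000 bp upstream, gene, 2000 bp downstream) of all genes were fitted by a quasi-binomial model with dispersion moderated by limma 3.58.1 (R 4.3.3). Both tests were checked on simulated data. The simulated windows had no spread between libraries beyond counting error, so that check cannot show how the window test behaves with such spread. Named features were the members' segments, called windows, the highest and most different 100 bp bin of each segment with at least 5 cytosines per library, and the 5 genes most like ROS1 upstream. The replicate numbers of the labels are not stated to mark a shared batch. Intervals are Wilson intervals at 95% and limits of 0 rest on 3 counts. Both take the counts at different cytosines as independent, although neighbouring cytosines share reads, so both are too narrow. The study calls the 2 libraries of a group biological replicates. Alternatives covered the coverage minimum, cytosines per window, shared cytosines, difference, window offset, flank length, weighting, test, replicate block and each library left out. Python 3.11.15, NumPy 2.4.6, SciPy 1.17.1 and BLAST 2.17.0 were used. CG and CHG methylation, small RNAs and a transposon annotation were not analysed here.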

Additional observations from a re-analysis of the deposited data

How the results depend on the processing

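The 3 windows behind DML2 were called in each comparison under the offset, the 5-cytosine minimum and the replicate block with at most 1 window fewer. A minimum of 10 reads left 0 called windows in all 3 comparisons, because the nrpd1-3 libraries then held 4 and 5 cytosines in the stretch and its windows were no longer tested. limma on arcsine levels called 0 windows for NRPD1ΔCTD against nrpd1-3 and 0 for NRPD1ΔCTD against NRPD1FL. For the latter comparison, the quasi-binomial F test and a difference of 20 points also called 0, and cytosines shared by all 6 libraries 1. Except for that F test, the share of all windows called is not given for the alternatives in this paragraph. Their counts therefore have no background beside them. Leaving out each library in turn gave 3 to 3 windows for NRPD1ΔCTD against nrpd1-3 and for nrpd1-3 against NRPD1FL, and 2 to 3 for NRPD1ΔCTD against NRPD1FL.

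For the segment downstream of DML2, flanks of 1000 bp end before the stretch, and the differences turned to -0.31 points for NRPD1ΔCTD minus nrpd1-3 and 0.21 points for nrpd1-3 minus NRPD1FL. Weighting cytosines equally gave 14.0, -18.0 and -3.93 points for NRPD1ΔCTD minus nrpd1-3, nrpd1-3 minus NRPD1FL and NRPD1ΔCTD minus NRPD1FL. The last difference passed with 10 reads or more (-12.3 points, adjusted p = 0.0487, quasi-binomial F test) and without dispersion (-8.21 points). Leaving out each library gave 16.7 to 22.7, -29.0 to -26.8 and -11.2 to -5.20 points. Over the 21 shared cytosines, an alternative chosen after seeing the data, the stretch gave 25.8, -34.0 and -8.20 points. ROS1 upstream was not called under any alternative run, with a difference of 0.15 points for NRPD1ΔCTD minus nrpd1-3 when cytosines were weighted equally, and leave-one-out ranges of -0.33 to -0.01, -0.04 to 0.51 and -0.21 to 0.34 points. limma called 0 genes of RNA-directed DNA methylation lower in NRPD1ΔCTD than in NRPD1FL.

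Without nrpd1-3 replicate 2, which leaves replicate 1 alone in its group and assumes that it varies as the other groups do, the gene bodies of ROS1, DML2 and DME, DML2 upstream and DME downstream were called higher in nrpd1-3 than in both other groups. The DML3 downstream call was lost with flanks of 1000 bp (-0.07 points). Of 33 differences between groups that were not called, 17 changed sign under at least 1 alternative.

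The labels share replicate numbers, and the deviations of same-numbered libraries correlated at 0.007, -0.004 and 0.005 between groups, so the numbers were not treated as pairs. With the replicate block, 3 windows were called in each comparison, the DML2 downstream differences stayed on their side of the threshold (adjusted p = 0.00044, 7.9e-05 and 0.0622), and no other call changed. DME upstream with 10 reads or more and DML2 and DML3 upstream with 1000 bp gave no value, since fewer than 10 cytosines were readable.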
